A study of Mus musculus with 6 samples.

Results

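The cadherin superfamily is the set of cell surface proteins whose extracellular part is built from repeated calcium-binding cadherin domains, and its mRNAs were followed here in neural progenitors that differ in Dmrta2. Members were all protein-coding genes of the count table, by Ensembl identifier in GENCODE M21, with symbols of Cdh or Pcdh and a digit, the Pcdhb genes, Celsr1 to Celsr3 and Fat1 to Fat4. The rule found 64 genes among 48526 identifiers, of which 57 had enough reads to be tested. Genes of the Pcdha and Pcdhg clusters were left out because their variable exons are spliced to shared ones. The members comprised 18 classical cadherins, 9 delta protocadherins, 22 Pcdhb genes and 15 others.

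Cells were differentiated from 2 mouse embryonic stem cell (mESC) lines, 1 labelled -/- for Dmrta2, a zinc finger transcription factor of dorsal telencephalic progenitors, and 1 labelled flox/flox, in which recombinase sites flank part of the gene and which served as control. RNA of 3 biological replicates per line, as the labels put it, was taken on day 8 of adherent culture in N2B27 medium. Cultures of both genotypes received LDN193189 (100 nM) and SB431542 (10 µM), which block BMP and TGF-beta type receptors, until day 4, XAV939 (1 µM), an inhibitor of Wnt signalling, until day 6, and the Hedgehog pathway inhibitor cyclopamine (1 µM) from day 2 on. They were replated on day 5. Each genotype is 1 line, so genotype and line cannot be told apart, and each p-value is relative to the scatter among 3 libraries per line. The labels do not say which part of the gene is deleted.

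Classical cadherins join cells by binding the same or a related cadherin on the neighbouring cell, and their cytoplasmic tails hold beta-catenin and p120-catenin and, through alpha-catenin, actin. Type I members such as E-cadherin and N-cadherin hold epithelia together, with N-cadherin at the apical junctions of the neural tube, and type II members divide the brain into territories and sets of neurons. Delta protocadherins are adhesion and signalling proteins of single genes, the clustered protocadherins give single neurons a surface identity, and the very large Celsr and Fat proteins act in planar cell polarity and tissue growth.

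The count table names the libraries of each genotype by the letters A, B and C, and triplets of values follow that order. Libraries held between 24565560 and 39646793 counts, and a level of 1 CPM (counts scaled to library size with TMM factors) stands for at least 25.1 reads. Dmrta2 itself was at 409, 414 and 439 CPM in -/-, against 85.2, 75.1 and 79.2 CPM in flox/flox. The count takes in any part of the gene outside the deletion and therefore checks nothing about it, so directions are those of the libraries labelled -/-. Progenitor markers were abundant in both groups, with a summed level of 3177 to 3533 CPM over 8 genes in -/- and 3405 to 3955 CPM in flox/flox, 5 genes being higher and 3 lower in -/-. Markers of neurons rose in 6 of 7 genes (7 in a fit blocked on the library letter, with Tubb3). Their sum was 2315, 2564 and 3896 CPM in -/-, against 1068, 1385 and 1948 CPM in flox/flox. Over all tested protein-coding genes, 20.5% rose and 20% fell (adjusted p under 0.05, edgeR). The calls of Elavl3, Map2, Rbfox3 and Stmn2 were each lost in at least 1 fit with a library left out. Their adjusted p reached 0.0912, 0.0588, 0.07 and 0.133 over the alternatives, while the calls of Snap25 and Dcx held. Among the progenitor markers, the calls of Nes, Vim, Hes5, Msi1 and Sox1 were also each lost in at least 1 such fit. Of the other marker lists, the epithelial sum over 5 genes was 58.9 to 111 CPM in -/- and 190 to 280 CPM in flox/flox. That of 5 pluripotency genes was 57.4 to 78.4 CPM in -/- and 92.2 to 98.4 CPM in flox/flox, most of it Pou5f1. Of these 5, 3 fell, while Nanog leaned upward by 0.39 (log2) and did not pass (adjusted p = 0.123, and 0.0245 blocked on the library letter, edgeR). The calls of Pou5f1 and Dppa5a were lost in fits with a library left out, and that of Esrrb held. The list for hem and choroid plexus fell in 4 of 5 members, of which Wnt3a missed without flox/flox A, -/- B or -/- C. Its sum was 68.0 to 111 CPM in -/- and 471 to 684 CPM in flox/flox, most of it Rspo2. In RNA of whole cultures, fewer cells of a type and less RNA per cell cannot be told apart.

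Across the superfamily, 23 members rose and 9 fell in the libraries labelled -/-, where "rose" and "fell" mean an adjusted p under 0.05 in edgeR's quasi-likelihood test over 20549 genes. That is 23 of 57 tested members, where 20.5% of all protein-coding genes tested rose, and 9 of 57, where 20% fell. Over all genes of any kind, 35.3% passed in either direction. The median log2 fold change of the tested members was 0.56, beside 0.00 over all protein-coding genes. The share of all reads held by the members was 0.358% to 0.370% in -/- and 0.354% to 0.369% in flox/flox. These ranges overlapped. Of the 32 calls, 16 passed whichever single library was left out and 16 did not in at least 1 of the 6 fits, where their adjusted p went up to 0.138.

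**Figure D1:**
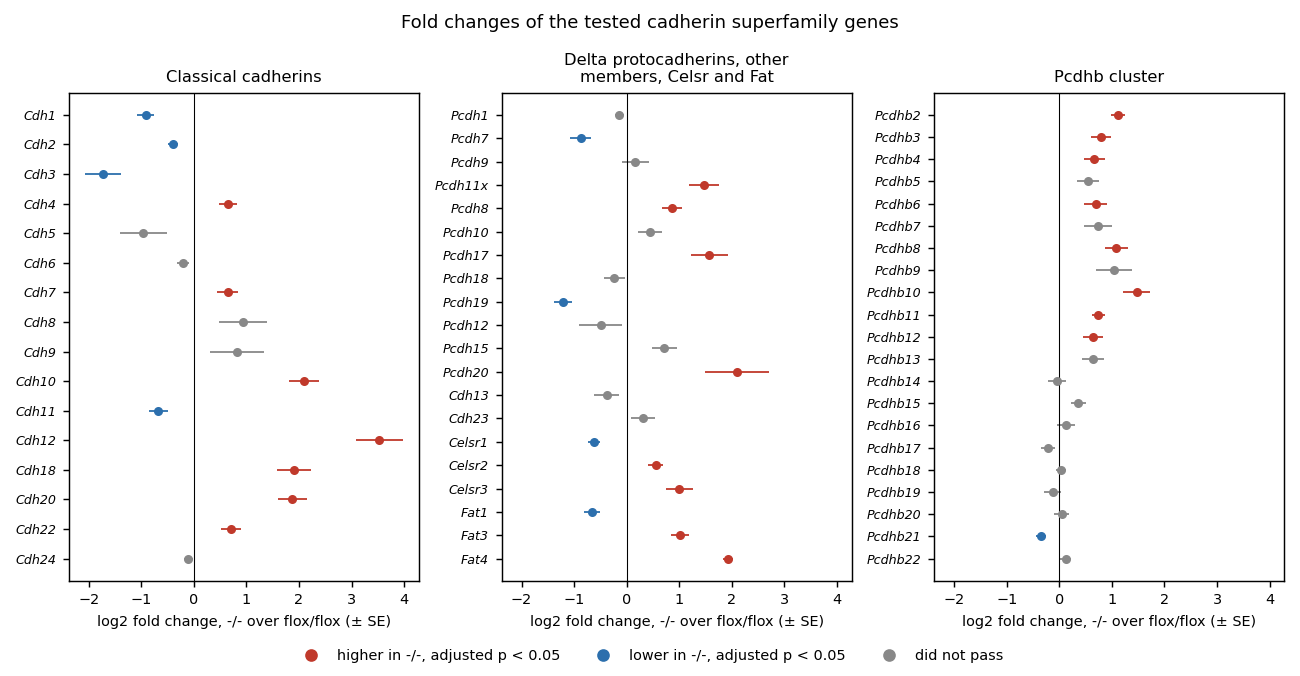
Log2 fold change of each tested member, -/- over flox/flox, with the standard error of the fit (3 libraries per group, the 3 panels on 1 scale). Rises reach 3.53 for Cdh12 among classical cadherins and 1.47 for Pcdhb10 in the Pcdhb cluster, and the lowest value is that of Cdh3 at -1.73.

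Among type I cadherins, Cdh1, Cdh2 and Cdh3 fell and Cdh4 rose, so that all 4 tested members passed, 1 of them upward. Over all tested protein-coding genes, 20.5% rose and 20% fell. Cdh2, which encodes N-cadherin, the main cadherin of neural progenitors, was at 536, 483 and 474 CPM in -/-, against 726, 685 and 561 CPM in flox/flox. The groups did not overlap, as in 27.8% of all tested protein-coding genes downward. The difference was -0.40 ± 0.10 (log2, SE; adjusted p = 0.0193, edgeR). Cdh4, the gene of R-cadherin, a close relative of N-cadherin made in brain and retina, measured 282, 296 and 301 CPM in -/-, against 148, 169 and 246 CPM in flox/flox. Every library labelled -/- lay above every control, with flox/flox C nearest, as in 28.3% of all tested protein-coding genes upward. The log2 difference was 0.64 ± 0.17 (adjusted p = 0.0238, edgeR). Both calls were lost without flox/flox A, flox/flox B, -/- B or -/- C, with adjusted p between 0.0505 and 0.0905 in edgeR.

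The cadherins of epithelia fell by more. Cdh1, which encodes E-cadherin, the cadherin of embryonic stem cells and simple epithelia, was at 58.7, 57.4 and 38.7 CPM in -/- and 89.4, 95.1 and 109 CPM in flox/flox, a fall of 1.89-fold (log2 -0.92 ± 0.16, adjusted p = 0.00445, edgeR). Cdh3, its neighbour on chromosome 8 and the gene of P-cadherin, was at 7.80, 8.59 and 2.92 CPM in -/- and 25.1, 18.3 and 21.5 CPM in flox/flox. It fell 3.33-fold (log2 -1.73 ± 0.35, adjusted p = 0.00762, edgeR). For both genes -/- C was the lowest library, and both calls held whichever library was left out. The epithelial markers Krt8, Krt18 and Cldn3 fell as well and -/- C was the lowest library of that list in sum, at 58.9 CPM, while Epcam was at 10.2 to 14.5 CPM in -/- and 15.5 to 17.1 CPM in flox/flox and Cldn6 at 10.8, 10.46 and 6.26 CPM in -/- and 13.6, 7.60 and 6.81 CPM in flox/flox, and neither passed (adjusted p = 0.0857 and 0.965, edgeR). The part of epithelial or pluripotent cells in the fall of Cdh1 and Cdh3 was not tested. Cdh15, the cadherin of muscle, had 0 to 3 reads per library and was not tested.

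Type II cadherins rose in 6 of 12 tested members and fell in 1, where 20.5% of all tested protein-coding genes rose and 20% fell. The largest rises were in genes of low level, of which 3 lie on chromosome 15. Cdh12, at 20449265 to 21589533 on the plus strand of chromosome 15 (GRCm38), was at 3.46, 5.02 and 6.79 CPM in -/-, against 0.203, 0.798 and 0.319 CPM in flox/flox. In reads this is 136, 177 and 193 in -/-, against 6, 21 and 8 in flox/flox. Its rise of 11.6-fold (log2 3.53 ± 0.45, adjusted p = 0.00134, edgeR) was the largest of the superfamily in these libraries, and without flox/flox B it came to 4.28 on the log2 scale. Cdh10 (18818947 to 19014236) was at 9.86, 11.2 and 19.2 CPM in -/-, against 2.50, 3.27 and 3.67 CPM in flox/flox, a rise of 4.27-fold (log2 2.09 ± 0.29, adjusted p = 0.00174, edgeR). Cdh18 (22549022 to 23474418) was at 1.47, 1.28 and 2.32 CPM in -/-, against 0.439, 0.532 and 0.359 CPM in flox/flox, and rose 3.74-fold (log2 1.90 ± 0.32, adjusted p = 0.00361, edgeR). All 3 encode cadherins of neurons, and their calls held whichever library was left out. None of their groups overlapped, where the CPM of 28.3% of all tested protein-coding genes stood apart upward. Their neighbours on that chromosome, Cdh6 and Cdh9, did not pass. Cdh6 was at 59.5, 58.2 and 52.9 CPM in -/- and 57.3, 77.2 and 62.5 CPM in flox/flox, and Cdh9 was under 1.6 CPM in every library (adjusted p = 0.259, and 0.0381 in the fit blocked on the library letter, within 0.0381 to 0.663 over the alternatives, edgeR).

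The starts of Cdh12, Cdh10, Cdh18, Cdh20 and Fat4 are shown because these 5 had the largest fold changes among members with a mean above 1 CPM and a promoter in the RefSeq table (GRCm38.p6). Each line is 300 bases, from 250 before the RefSeq start to 50 after it, on the plus strand, at chr15:18820079-18820378 for Cdh10, chr15:21111202-21111501 for Cdh12, chr15:23036213-23036512 for Cdh18, chr1:104768270-104768569 for Cdh20 and chr3:38886690-38886989 for Fat4. The RefSeq starts of Cdh10, Cdh12 and Cdh18 lie inside the longer genes of GENCODE. Capitals mark matches on either strand to CANNTG, the E-box bound by proneural factors. The letters ACANTGT, the core of sites bound by Dmrt proteins, were also searched on both strands, and matches to both patterns may share bases.
Cdh10: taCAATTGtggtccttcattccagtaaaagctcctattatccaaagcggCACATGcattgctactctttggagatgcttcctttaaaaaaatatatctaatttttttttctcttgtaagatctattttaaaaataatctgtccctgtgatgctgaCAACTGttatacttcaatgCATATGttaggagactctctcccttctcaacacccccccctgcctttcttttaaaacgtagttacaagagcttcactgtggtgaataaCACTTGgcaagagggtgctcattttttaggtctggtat
Cdh12: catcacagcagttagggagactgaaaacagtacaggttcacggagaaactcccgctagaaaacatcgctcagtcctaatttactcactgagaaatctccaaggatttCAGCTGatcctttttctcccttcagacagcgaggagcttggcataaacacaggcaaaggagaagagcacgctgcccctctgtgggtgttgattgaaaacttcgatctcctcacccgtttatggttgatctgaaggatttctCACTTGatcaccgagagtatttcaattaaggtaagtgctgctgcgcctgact
Cdh18: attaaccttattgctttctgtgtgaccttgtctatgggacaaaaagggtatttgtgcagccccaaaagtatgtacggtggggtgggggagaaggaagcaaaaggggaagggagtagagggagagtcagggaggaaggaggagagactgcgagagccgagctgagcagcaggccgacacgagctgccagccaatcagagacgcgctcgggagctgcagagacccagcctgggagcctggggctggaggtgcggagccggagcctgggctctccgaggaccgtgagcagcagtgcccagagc
Cdh20: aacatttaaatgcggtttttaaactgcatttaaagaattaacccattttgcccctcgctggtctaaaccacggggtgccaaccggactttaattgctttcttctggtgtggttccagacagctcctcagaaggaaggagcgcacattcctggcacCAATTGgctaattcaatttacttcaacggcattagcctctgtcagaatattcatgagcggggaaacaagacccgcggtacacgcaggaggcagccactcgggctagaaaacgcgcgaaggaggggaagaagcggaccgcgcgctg
Fat4: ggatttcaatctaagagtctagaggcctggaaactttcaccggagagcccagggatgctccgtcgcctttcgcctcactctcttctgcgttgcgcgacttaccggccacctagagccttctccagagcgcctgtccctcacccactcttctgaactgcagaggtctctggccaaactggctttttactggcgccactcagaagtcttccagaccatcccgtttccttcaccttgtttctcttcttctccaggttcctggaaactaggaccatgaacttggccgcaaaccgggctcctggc
The Cdh10 window held 5 E-box matches, that of Cdh12 2, that of Cdh20 1, and those of Cdh18 and Fat4 0. The Dmrt core was in 0 of the 5. An E-box was found in 72.3% of 32851 RefSeq promoters of this length and the Dmrt core in 7.54%, and in 58.1% and 3.23% of the 31 promoter entries of 28 members. A match is a description of the letters and not a site.

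Cdh20, on chromosome 1, encodes another type II cadherin of the neural tube. It was at 13.1, 7.80 and 6.54 CPM in -/-, against 2.67, 2.51 and 2.31 CPM in flox/flox, and rose 3.67-fold (log2 1.87 ± 0.27, adjusted p = 0.00217, edgeR). Its highest library was -/- A, unlike Cdh10, Cdh12 and Cdh18, whose highest was -/- C. Cdh22 was at 37.8, 40.3 and 35.6 CPM in -/-, against 16.4, 23.8 and 29.7 CPM in flox/flox (log2 0.71 ± 0.19, adjusted p = 0.0253, edgeR), and Cdh7, also on chromosome 1, was at 8.06, 8.02 and 11.2 CPM in -/-, against 4.46, 6.72 and 6.25 CPM in flox/flox (log2 0.64 ± 0.20, adjusted p = 0.0414, edgeR). Both rises are near the threshold. The rise of Cdh7 was lost whichever library was left out (adjusted p 0.0532 to 0.101, edgeR) and that of Cdh22 without flox/flox B, -/- A or -/- B (0.0751, 0.0575 and 0.0798).

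The type II cadherin that fell was Cdh11, made in mesenchyme, meninges and parts of the brain. It was at 90.7, 84.7 and 85.7 CPM in -/-, against 185, 129 and 103 CPM in flox/flox, a difference of -0.68 ± 0.19 (log2, adjusted p = 0.0281, edgeR). The libraries labelled -/- were close together while the control libraries spread nearly to them, and the call was lost without flox/flox B, -/- A, -/- B or -/- C (adjusted p 0.0606 to 0.0899, edgeR). The summed level of 6 neural crest and mesenchyme markers was 64.8 to 97.0 CPM in -/- and 62.0 to 135 CPM in flox/flox. Of the 5 that were tested, Tfap2a rose and Prrx1 fell, where 20.5% of all tested protein-coding genes rose and 20% fell. The part of cells with these markers in the fall of Cdh11 was not tested. Cdh24 was at 29.7, 31.2 and 32.6 CPM in -/- and 30.4, 34.6 and 35.8 CPM in flox/flox, and did not pass (log2 -0.11 ± 0.08, adjusted p = 0.348, edgeR).

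Cdh8 and Cdh5 varied as much within a genotype as between them. Cdh8, a cadherin of cortical neurons, was at 17.5, 18.5 and 27.6 CPM in -/- and 4.53, 9.31 and 19.6 CPM in flox/flox. The library flox/flox C lay among those labelled -/-, and the log2 difference of 0.93 ± 0.46 did not pass (adjusted p = 0.158, edgeR). Blocking on the library letter gave an adjusted p of 0.0119, and leaving out flox/flox C gave 0.0108 at a log2 difference of 1.63, within 0.0108 to 0.339 over the alternatives. Cdh5, the cadherin of blood vessel endothelium, was at 11.46, 11.3 and 4.05 CPM in -/- and 9.73, 17.4 and 25.8 CPM in flox/flox (log2 -0.97 ± 0.45, adjusted p = 0.135, edgeR). The summed level of 6 endothelial markers was 5.14 to 9.96 CPM in -/- and 32.4 to 81.9 CPM in flox/flox, most of it Kdr, which fell (log2 -3.69, adjusted p = 0.00110, edgeR), and its part in the values of Cdh5 was not tested. Of the other 5 markers, Tie1, Emcn and Cldn5 were at 0 to 0.305 CPM in -/- and 0 to 0.456 CPM in flox/flox. Pecam1 and Tek had reads in every library and did not pass, Pecam1 at 1.196 to 1.62 CPM in -/- and 0.878 to 2.35 CPM in flox/flox, and Tek at 0.774 to 2.04 CPM in -/- and 1.16 to 2.16 CPM in flox/flox. Cdh19, a cadherin of the Schwann cell lineage, had 0 to 3 reads per library and was not tested.

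**Figure D2:**
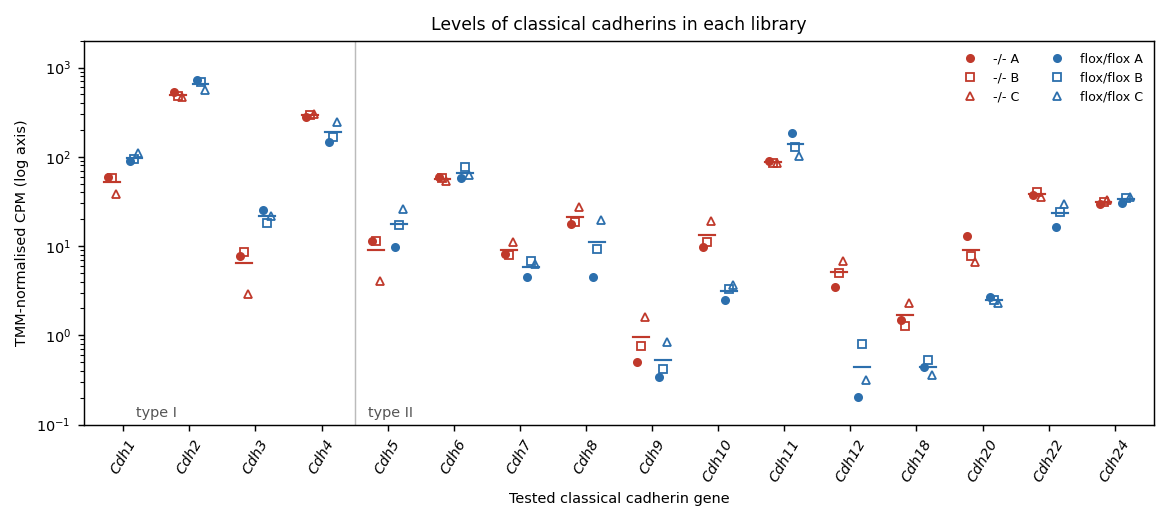
TMM-normalised CPM (log axis) of each tested classical cadherin gene in every library, with -/- at the left of each gene, flox/flox at its right, and a line at each group mean. The groups stand apart most for Cdh12, at 3.46 to 6.79 CPM in -/- and 0.203 to 0.798 CPM in flox/flox, while those of Cdh8 overlap.

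Levels of different genes can be set side by side per kilobase of exonic length. On that scale Cdh2 was the highest of all members in both genotypes, at 61.7 CPM per kilobase in -/- and 81.5 in flox/flox, and Cdh4 was next among classical cadherins, at 40.4 in -/- and 25.8 in flox/flox. The ratio of Cdh4 to Cdh2, both per kilobase, was 0.585, 0.680 and 0.706 in -/-, against 0.226, 0.274 and 0.488 in flox/flox. Cdh4 made up 23.3% to 26.7% of the summed per-kilobase level of the 18 classical cadherins in -/-, against 11.3% to 18.9% in flox/flox. Cdh1 made up 5.46% to 7.79% in -/-, against 10.8% to 13.3% in flox/flox, and Cdh22 6.13% to 6.74% in -/-, against 2.45% to 4.46% in flox/flox. For Cdh2 the shares overlapped, at 37.2% to 39.9% in -/- and 38.7% to 49.9% in flox/flox. Cdh10, Cdh12, Cdh18 and Cdh20 each made up at most 1.96% of the sum in any library. The sum itself was 155 to 166 CPM per kilobase in -/- and 179.7 to 180.3 in flox/flox.

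**Figure D3:**
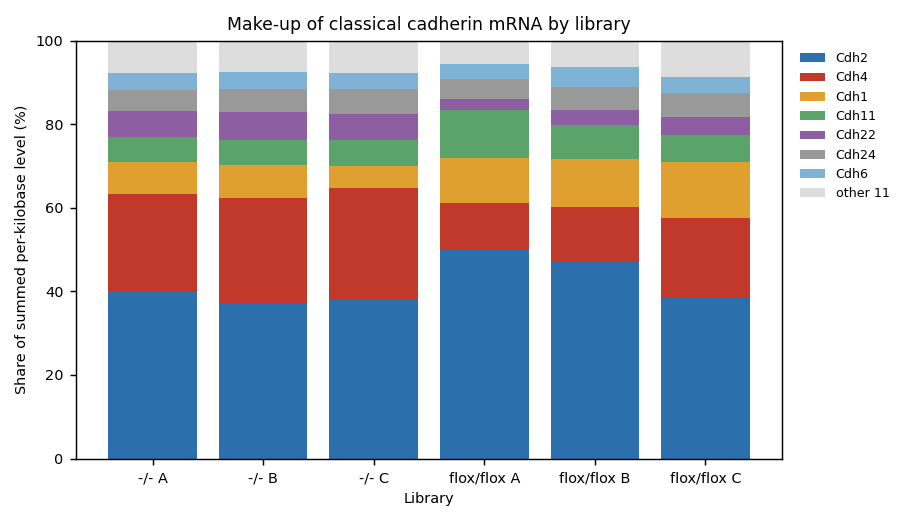
Share of each gene in the summed per-kilobase level of the 18 classical cadherins, in %, 1 bar per library. The share of Cdh4 is 23.3% to 26.7% in -/- and 11.3% to 18.9% in flox/flox, and that of Cdh1 is 5.46% to 7.79% in -/- and 10.8% to 13.3% in flox/flox.

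Delta protocadherins carry conserved motifs in their cytoplasmic tails by which they are sorted into a delta-1 and a delta-2 group. They moved in both directions, with 3 of 9 members rising, 2 falling and 4 not passing, and a median log2 fold change of 0.17. All 9 were tested. Over all tested protein-coding genes 20.5% rose and 20% fell, so the counts of this small group are not set apart from the rest. Pcdh17 and Pcdh8 of the delta-2 group and Pcdh11x of the delta-1 group rose. Pcdh19 (delta-2) and Pcdh7 (delta-1) fell.

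Pcdh17, a protocadherin of axons and synapses, measured 57.5, 62.3 and 87.8 CPM in -/-, against 13.3, 19.7 and 36.9 CPM in flox/flox. The groups did not overlap although the control libraries differed widely among themselves, where 28.3% of all tested protein-coding genes stood apart upward. The rise was 2.98-fold (log2 1.57 ± 0.35, adjusted p = 0.0118, edgeR, and 0.0535 without flox/flox B). Pcdh11x was at 10.9, 12.3 and 22.3 CPM in -/-, against 4.49, 5.85 and 6.02 CPM in flox/flox, a rise of 2.78-fold (log2 1.47 ± 0.29, adjusted p = 0.00693, edgeR). Pcdh8, known as paraxial protocadherin in the early mesoderm and as arcadlin at synapses, was at 51.0, 54.8 and 78.2 CPM in -/-, against 26.2, 37.9 and 36.9 CPM in flox/flox (log2 0.87 ± 0.20, adjusted p = 0.0128, edgeR). For all 3 the highest library was -/- C, which was also the highest for the summed neuron markers, as flox/flox C was among the controls, where it was highest for Pcdh17 and Pcdh11x too.

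Pcdh19, whose human gene is mutated in a form of epilepsy and which can pair with N-cadherin, had the highest level per kilobase of the delta protocadherins in flox/flox, at 12.5 CPM, against 5.40 in -/-. It was at 67.3, 56.1 and 46.3 CPM in -/-, against 155, 132 and 106 CPM in flox/flox, a fall of 2.31-fold (log2 -1.21 ± 0.17, adjusted p = 0.00202, edgeR) that held whichever library was left out. Pcdh7 was at 34.6, 28.5 and 37.7 CPM in -/-, against 80.7, 57.7 and 46.3 CPM in flox/flox (log2 -0.88 ± 0.20, adjusted p = 0.0134, edgeR, and 0.0536 without -/- B). Of its exonic bases 21.1% lie under the noncoding gene 4932441J04Rik on the other strand, so reads of the 2 may not be separable. In both genes the groups stood apart, as did 27.8% of all tested protein-coding genes in that direction, with flox/flox C the nearest control.

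The other delta protocadherins did not pass in edgeR. Pcdh10, an adhesion protein of forebrain axons, was at 29.99, 34.9 and 60.1 CPM in -/- and 31.3, 30.4 and 30.04 CPM in flox/flox, so that 1 library, -/- C, stood above all others (log2 0.44 ± 0.24, adjusted p = 0.188). Pcdh18 was at 44.1, 44.1 and 40.5 CPM in -/- and 68.6, 44.9 and 38.2 CPM in flox/flox (log2 -0.24 ± 0.20, adjusted p = 0.388), where flox/flox A alone was high. Pcdh1 was at 32.5, 37.3 and 39.1 CPM in -/- and 40.4, 42.0 and 37.6 CPM in flox/flox (log2 -0.14 ± 0.09, adjusted p = 0.244). Pcdh9 lay between 12.8 and 25.3 CPM in all libraries (log2 0.17 ± 0.25, adjusted p = 0.645).

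The Celsr and Fat genes encode very large proteins, and all 6 that were tested passed. Over all tested protein-coding genes, 20.5% rose and 20% fell. Celsr1 and Fat1 fell, and Celsr2, Celsr3, Fat3 and Fat4 rose. Celsr1, a cadherin of planar polarity in epithelia and neural tube closure, was at 94.2, 89.7 and 78.5 CPM in -/-, against 158, 131 and 116 CPM in flox/flox (log2 -0.62 ± 0.12, adjusted p = 0.00710, edgeR). Celsr2 was at 314, 330 and 385 CPM in -/-, against 192, 225 and 283 CPM in flox/flox (log2 0.56 ± 0.14, adjusted p = 0.0209, edgeR). Celsr3, which guides axon tracts of the forebrain, was at 138, 160 and 227 CPM in -/-, against 59.1, 87.2 and 115 CPM in flox/flox and rose 2.01-fold (log2 1.00 ± 0.26, adjusted p = 0.0218, edgeR). None of the 3 overlapped between genotypes, where the CPM of 28.3% of all tested protein-coding genes stood apart upward and of 27.8% downward. The call of Celsr2 was lost without flox/flox B, -/- B or -/- C (adjusted p 0.0779, 0.0501 and 0.0530, edgeR) and that of Celsr3 without flox/flox B or -/- C (0.0731 and 0.0533).

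Fat4 (chromosome 3, 38886940 to 39011985, plus strand) showed the smallest adjusted p of all members. It encodes the receptor of the ligand Dchs1, a pair that acts on proliferation of cortical progenitors in mice. Its level was 420, 429 and 487 CPM in -/-, against 113, 108 and 131 CPM in flox/flox, a rise of 3.80-fold (log2 1.93 ± 0.10, adjusted p = 0.000127, edgeR). The libraries of each genotype lay within a narrow band, with a wide gap between the groups, and the log2 change was between 1.87 and 2.02 over 14 alternatives. Of its exonic bases 8.68% lie under the antisense gene C230034O21Rik. Fat3, which shapes neuronal dendrites in the retina, was at 99.3, 99.1 and 133 CPM in -/-, against 46.1, 49.0 and 68.5 CPM in flox/flox and rose 2.02-fold (log2 1.02 ± 0.18, adjusted p = 0.00429, edgeR). Fat1, a regulator of actin and of apical junctions in epithelia and the neural tube, was at 750, 664 and 516 CPM in -/-, against 1137, 1043 and 864 CPM in flox/flox. It fell 1.58-fold (log2 -0.66 ± 0.15, adjusted p = 0.0134, edgeR, and 0.0508 without flox/flox B). Per kilobase, Fat1 was at 41.1 CPM in -/- and 64.8 in flox/flox and Fat4 at 25.9 in -/- and 6.83 in flox/flox. Fat2, a gene of the cerebellum, had 0 to 5 reads per library and was not tested.

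**Figure D4:**
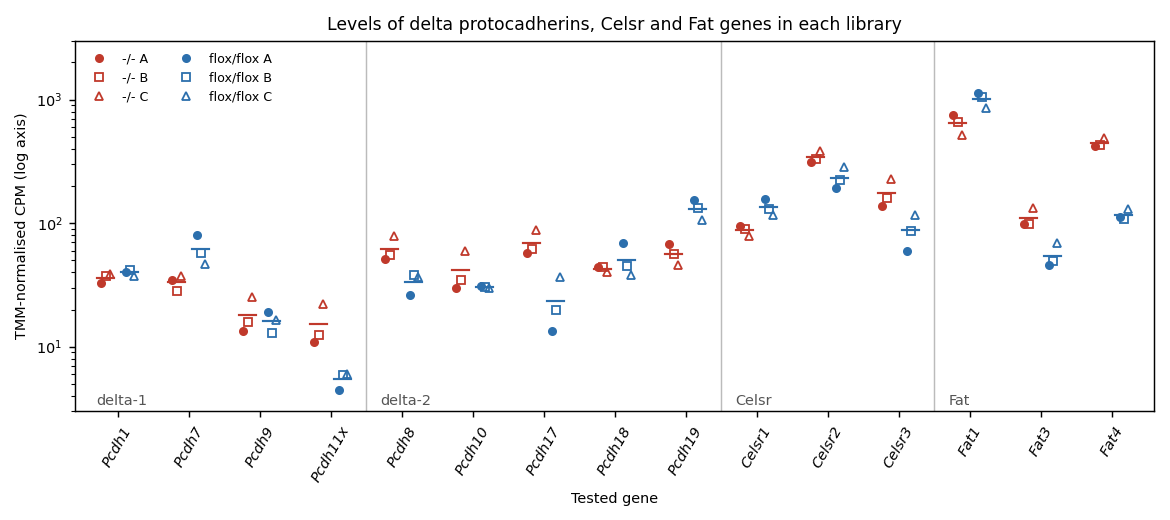
TMM-normalised CPM (log axis) of the delta protocadherins and the tested Celsr and Fat genes in every library, with -/- at the left of each gene, flox/flox at its right, and a line at each group mean. Fat4 lies at 420 to 487 CPM in -/- and 108 to 131 CPM in flox/flox, and Pcdh19 at 46.3 to 67.3 CPM in -/- and 106 to 155 CPM in flox/flox.

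The Pcdhb genes form a row of 22 single-exon genes on chromosome 18 (37264938 to 37524479, plus strand), each with its own promoter, between the Pcdha and Pcdhg clusters. The row divided by position. Of 21 tested genes, 8 rose, and they were Pcdhb2, Pcdhb3, Pcdhb4, Pcdhb6, Pcdhb8, Pcdhb10, Pcdhb11 and Pcdhb12, in the part of the row nearer the Pcdha cluster. Only Pcdhb21 fell, near the other end. Among all tested protein-coding genes 20.5% rose and 20% fell. Among those of chromosome 18, which include this row, 13.1% rose and 22.7% fell. The CPM of the groups stood apart upward for 12 of the 21 and downward for 1, where 28.3% and 27.8% of all tested protein-coding genes did so. In the fit blocked on the library letter 12 rose, as in DESeq2 and in edgeR with no filter on low counts, and the same 4 genes joined in each, Pcdhb5, Pcdhb7, Pcdhb9 and Pcdhb13. In the blocked fit they had adjusted p of 0.0185, 0.00205, 0.00274 and 0.0147 (edgeR). Over all genes tested, 4358 rose with the block and 3679 without it. Over all alternatives their adjusted p reached 0.183, 0.203, 0.142 and 0.152.

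In the first 11 genes of the row, of which 10 were tested, the log2 fold changes ran from 0.54 to 1.47 with a median of 0.76. In the last 11 they ran from -0.36 to 0.64 with a median of 0.04, and all genes from Pcdhb14 on lay between -0.36 and 0.36. This division of the row was made after the values were seen and was not tested. Spearman's rho of the order in the row and the log2 fold change was -0.79 over 21 genes, as a description, since the genes share libraries and, in part, reads. It lay between -0.81 and -0.70 when any single library was left out. Spearman's rho of the log2 fold change and the flox/flox level (CPM), which itself enters the fold change, was -0.48 over the same 21 genes. Order and level were not separated. Summed over the first 11 genes, the level was 127 to 195 CPM in -/-, against 80.7 to 98.7 CPM in flox/flox, and summed over the last 11 it was 153 to 204 CPM in -/- and 166 to 185 CPM in flox/flox. The first 11 genes held 45.2%, 45.9% and 48.9% of the reads of the row in -/-, against 31.2%, 32.8% and 34.7% in flox/flox. The 2 groups did not overlap in this share, which follows in part from a division made after the values were seen and is no separate support for it.

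Pcdhb10 showed the largest rise of the row, at 11.9, 14.1 and 21.1 CPM in -/-, against 4.26, 5.70 and 7.05 CPM in flox/flox (log2 1.47 ± 0.26, adjusted p = 0.00460, edgeR). Pcdhb2 was at 13.7, 15.6 and 18.8 CPM in -/-, against 7.53, 6.99 and 7.53 CPM in flox/flox (log2 1.12 ± 0.13, adjusted p = 0.00108, edgeR). Pcdhb8 was at 7.45, 8.11 and 11.8 CPM in -/-, against 3.55, 4.18 and 5.14 CPM in flox/flox (log2 1.08 ± 0.22, adjusted p = 0.00777, edgeR). In all 3 the lowest -/- library lay above the highest control, as it did for 28.3% of all tested protein-coding genes. Pcdhb11, with the highest level of the row per kilobase in -/- (8.80 CPM, against 5.27 in flox/flox), was at 32.5, 38.7 and 45.5 CPM in -/-, against 25.0, 21.99 and 22.8 CPM in flox/flox (log2 0.74 ± 0.13, adjusted p = 0.00406, edgeR). The calls of these 4 genes held whichever library was left out. Those of the other 4 rises did not, as Pcdhb3 missed without flox/flox A or flox/flox B (adjusted p 0.05001 and 0.0581, edgeR) and Pcdhb4, Pcdhb6 and Pcdhb12 without flox/flox A, flox/flox B, -/- B or -/- C (0.0516 to 0.138).

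Towards the Pcdhg end 1 gene passed. Pcdhb21 was at 13.2, 14.03 and 15.3 CPM in -/-, against 17.5, 19.4 and 17.5 CPM in flox/flox, a difference of -0.36 ± 0.09 (log2, adjusted p = 0.0214, edgeR) that was lost without flox/flox B, -/- A or -/- B (0.0909, 0.0671 and 0.0859). Pcdhb17 was at 24.2, 25.2 and 33.4 CPM in -/- and 32.0, 29.3 and 34.7 CPM in flox/flox and did not pass (log2 -0.22 ± 0.13, adjusted p = 0.247), except without -/- C, where the difference was -0.36 (adjusted p = 0.0227, edgeR, within 0.0227 to 0.541 over the alternatives). Pcdhb19 was at 23.4, 25.4 and 34.8 CPM in -/- and 29.1, 27.2 and 34.7 CPM in flox/flox (log2 -0.13 ± 0.16, adjusted p = 0.590, edgeR). In these last 2 genes -/- C reached the control levels. Pcdhb16 and Pcdhb22 had mean levels of 26.1 ± 5.54 and 24.02 ± 0.711 CPM in -/- and 23.9 ± 3.20 and 22.1 ± 2.94 CPM in flox/flox (SD, n = 3 each), and adjusted p of 0.606 and 0.415 in edgeR.

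Pcdhb1, at the Pcdha end, had 4 to 16 reads per library and was not tested. Genes of the row resemble each other, and 1.80% to 11.99% of the 50-base words in the transcripts of the 21 tested genes also occur in another gene, most in Pcdhb12 (shared with Pcdhb11) and in Pcdhb21 (shared with Pcdhb22). The treatment of reads that map to several places is not given in the sources used here, so values of these pairs are uncertain. Of the exonic bases of Pcdhb12, 63.5% lie under the antisense gene Gm37446. Outside the clusters, the nearest tested protein-coding genes were Zmat2 on the Pcdha side, with a log2 difference of 0.20 (adjusted p = 0.0225, edgeR), and Taf7, between the Pcdhb and Pcdhg clusters, with -0.23 (adjusted p = 0.103, edgeR).

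**Figure D5:**
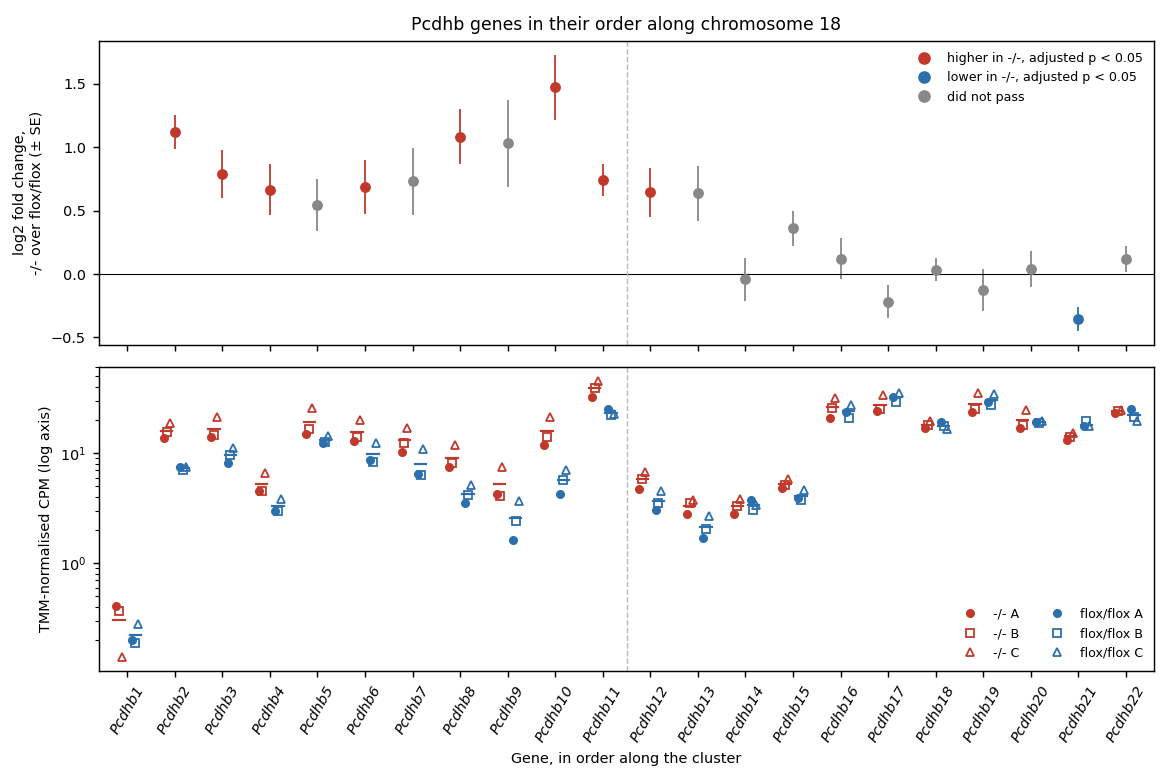
Pcdhb genes in their order along chromosome 18, with the log2 fold change, -/- over flox/flox, and its standard error above (21 tested genes), and TMM-normalised CPM (log axis) of every library below, -/- at the left of each gene and flox/flox at its right. The dashed line separates the first 11 genes, with a median log2 fold change of 0.76, from the last 11, with a median of 0.04.

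The remaining members include single cadherins and protocadherins outside the main families. Pcdh20 was at 1.09, 0.851 and 2.18 CPM in -/-, against 0.0676, 0.342 and 0.558 CPM in flox/flox, which is 43, 30 and 62 reads in -/-, against 2, 9 and 14 reads in flox/flox. It rose (log2 2.10 ± 0.60, adjusted p = 0.0313, edgeR), but not without flox/flox A, flox/flox B or -/- C (0.0689, 0.0909 and 0.0680), and without flox/flox C the log2 change was 2.75. Pcdh15 and Cdh23, which encode the tip link of sensory hair cells, were at 1.39 ± 0.275 and 2.37 ± 0.401 CPM in -/- and 0.843 ± 0.178 and 1.93 ± 0.487 CPM in flox/flox (SD, n = 3 each), with adjusted p of 0.0569 and 0.345 in edgeR. Blocking on the library letter gave Pcdh15 an adjusted p of 0.0276, within 0.0276 to 0.179 over the alternatives. Cdh13, the cadherin without a cytoplasmic tail, lay between 6.92 and 14.9 CPM and Pcdh12, of blood vessels, between 0.669 and 2.74 CPM over all libraries, and neither passed. Cdh16 and Cdh17, of kidney and gut, and Cdh26 had 0 to 3 reads per library and were not tested.

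By position, 4 of the 9 members that fell lie on chromosome 8 (Cdh1, Cdh3, Cdh11 and Fat1), where 0 rose in edgeR and 3 did not pass. Among all 768 tested protein-coding genes of chromosome 8, 19% fell and 13% rose. The median log2 fold change of chromosome 11 was 0.53 over 1172 tested protein-coding genes, against -0.08 to 0.04 for the other chromosomes, and 0 tested members lie on it. By library, 15 of the 23 members that rose were highest in -/- C and in flox/flox C within their genotype, the libraries with the highest sum of neuron markers, as were 40.9% of all 3679 genes that rose. The same held for 14 of the 25 members that did not pass (56%), beside 19% of all genes that did not pass, so it was not particular to the members that rose. Of the 9 members that fell 0 did so, beside 5.07% of all genes that fell. The part of neurons in these values was not tested.

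The proteins that work with cadherins were counted in the same fit. Of 14 tested catenins and junction partners, 4 rose and 7 fell, where 20.5% and 20% of all protein-coding genes did. Ctnnd2, the delta-catenin of neurons, was at 82.0 ± 4.93 CPM in -/- and 35.5 ± 7.60 CPM in flox/flox (SD, n = 3 each), and rose 2.31-fold (adjusted p = 0.00109, edgeR). Ctnna2, the alpha-catenin of neurons, rose 1.74-fold (adjusted p = 0.0224, edgeR, and up to 0.0851 without flox/flox A or flox/flox B), and the nectin gene Nectin1 rose 1.26-fold (adjusted p = 0.00731). Ctnna1, the alpha-catenin of epithelia, fell to 319 ± 23.6 CPM in -/-, against 441 ± 9.02 CPM in flox/flox (adjusted p = 0.00188), Nectin2 fell 2.42-fold (adjusted p = 0.000487) and the actin linker gene Vcl fell 3.08-fold (adjusted p = 0.00196, edgeR). Ctnnb1, beta-catenin, was at 1341 ± 52.2 CPM in -/- and 1469 ± 42.5 CPM in flox/flox and did not pass (adjusted p = 0.103, edgeR).

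Of 12 partners of Celsr and Fat proteins 2 rose and 3 fell, near the shares over all protein-coding genes of 20.5% and 20%. Blocked on the library letter, Dvl1 also rose (adjusted p = 0.0389, edgeR, and up to 0.798 over the alternatives). Dvl2, on chromosome 11, rose 1.73-fold (adjusted p = 0.000380, edgeR) and Prickle1, of the planar polarity core, fell by 0.59 on the log2 scale (adjusted p = 0.00545, edgeR). Dvl3 (log2 0.25), Fzd3 (-0.21) and Fzd6 (-0.71) passed with adjusted p of 0.0298, 0.0202 and 0.0385, but each missed in at least 3 of the fits with a library left out (over the alternatives up to 0.0960, 0.0979 and 0.0974). Dchs1, the ligand of Fat4, was at 153, 166 and 228 CPM in -/- and 167, 159 and 187 CPM in flox/flox, with overlapping groups (adjusted p = 0.663, edgeR). Of 10 partners of protocadherins 1 rose and 4 fell, and in the fit blocked on the library letter 3 rose and 4 fell. With the block Taok2 and Dab1 rose (adjusted p = 0.00712 and 0.04996, edgeR), Ppp1ca fell (0.0407) and Ptk2b no longer passed (0.0610), while over all alternatives the adjusted p of Taok2, Dab1 and Ppp1ca reached 0.164, 0.827 and 0.257. Cyfip2, a subunit of the WAVE actin complex, which lies on chromosome 11, rose 2.70-fold (adjusted p = 0.000325, edgeR), while its paralog Cyfip1, the complex member Nckap1 and the kinase gene Ptk2 fell by at most 0.21 on the log2 scale, with adjusted p of 0.0214, 0.0210 and 0.0304 that reached 0.101 to 0.150 over the alternatives. The kinase gene Ptk2b (log2 -0.78) passed at 0.0498 and missed in 9 alternatives, up to 0.137.

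Of 10 factors that act on the promoters of clustered protocadherins 2 fell in edgeR, which is the 20% seen over all protein-coding genes. Of the 10 log2 fold changes 0 were positive, and they ran from -0.24 to -0.02. The CPM of the groups stood apart downward for 6 of the 10, where 27.8% of all tested protein-coding genes did so. Rad21, a cohesin subunit gene, fell (log2 -0.17, adjusted p = 0.0288, edgeR, and up to 0.133 over the alternatives). Wapl, whose product releases cohesin from chromatin, fell as well (log2 -0.24, adjusted p = 0.0103, edgeR, and 0.0576 without -/- B). Smc1a, Smc3 and Nipbl did not pass (adjusted p = 0.255, 0.115 and 0.122, edgeR). Ctcf, Smchd1 and Dnmt3b were at 184 ± 4.17, 148 ± 5.59 and 85.1 ± 17.6 CPM in -/- and 188 ± 2.27, 159 ± 4.82 and 95.6 ± 4.05 CPM in flox/flox (SD, n = 3 each), and did not pass. Among 5 genes of cadherin processing 3 fell, beside 20% over all protein-coding genes. Furin, the protease that cuts the propeptide of classical cadherins, fell 1.64-fold (adjusted p = 0.00115, edgeR). Ncstn (log2 -0.27, adjusted p = 0.0127, and 0.0642 without -/- B) and Psen2 (log2 -0.40, adjusted p = 0.0264, and up to 0.0964 over the alternatives) fell by less.

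Of 7 genes listed as repressors and activators of Cdh1, 5 fell (Snai1, Snai2, Twist1, Esrp1 and Grhl2), 1 rose (Zeb2) and 1 did not pass (Zeb1). Over all tested protein-coding genes 20% fell and 20.5% rose. The list mixes repressors with genes of epithelia, so its count has no single direction for Cdh1. Snai2 and Snai1, repressors of Cdh1, were at 1.12 ± 0.388 and 2.71 ± 0.854 CPM in -/-, against 4.00 ± 1.11 and 5.30 ± 0.657 CPM in flox/flox (SD, n = 3 each; adjusted p = 0.00393 and 0.0194, edgeR), and the call of Snai1 was lost without flox/flox B or flox/flox C (up to 0.0524). Esrp1, a splicing factor of epithelia, fell 2.00-fold (adjusted p = 0.00282, edgeR), the epithelial transcription factor gene Grhl2 fell 1.60-fold (adjusted p = 0.0296, edgeR, and missed in 5 of the 6 fits with a library left out, up to 0.0895), and Twist1 fell 2.61-fold (adjusted p = 0.0189, edgeR, and up to 0.0614 without -/- B or -/- C). Zeb2, a repressor of Cdh1 that is also made in neural cells, rose 1.66-fold, at 94.4 ± 7.71 CPM in -/- and 57.0 ± 6.23 CPM in flox/flox (adjusted p = 0.00158, edgeR). Zeb1, another repressor of Cdh1, was at 116 ± 13.1 CPM in -/- and 98.8 ± 6.68 CPM in flox/flox (SD, n = 3 each) and did not pass (log2 0.23, adjusted p = 0.0853, edgeR).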

How the data were processed

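Per the submitters' processing notes, reads were handled with BWA 0.5.9 and featureCounts 1.4.6 on mm10 (GRCm38), and the authors deposited 1 table of raw read counts per Ensembl gene for 6 libraries, whose name says that duplicates were marked. Libraries were made with a stranded kit, per the labels. What annotation, strand option and rule for reads with several hits the counting used is not given in the sources used here, so overlapping and antisense genes may share reads. All 6 columns were used. Column headers give the genotype and a letter, not a replicate number, so columns were assigned to groups. Symbols, positions and exonic lengths came from GENCODE M21 (48058 of 48526 identifiers), promoters from RefSeq.

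Counts were tested in R 4.3.3 with edgeR 4.0.16 (filterByExpr with minimum count 10 and total 15, TMM, group only, glmQLFTest, two-sided), with Benjamini-Hochberg adjustment over 20549 genes and a threshold of 0.05. SE is the absolute log2 fold change divided by the square root of the test's F statistic, which approximates the standard error of the coefficient. Alternatives were other scalings and filters, each library left out, DESeq2 1.42.0, limma-voom (limma 3.58.1), a threshold of 0.01 and the column letter as a block. Same-letter libraries deviated together (r = 0.275, 0.101 and 0.264 for A, B and C), which is a pairing read from the data. Libraries of a group differed by more than sampling noise (mean chi-square per gene 5.56 to 30.3). The script was tested on simulated data. Levels and intervals rest on read counts, and total counts per library limit precision for members under 1 CPM. Members that passed with a log2 change of 1 or more in size, members averaging 20 CPM or more, the Pcdhb extremes, and up to 3 genes per direction of each partner list are named with values. Members and lists were chosen with earlier results of these data known.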

Additional observations from a re-analysis of the deposited data

How the results depend on the processing

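No tested member changed direction under the 2 other scalings, the 2 other filters (that of 1 CPM kept 55 members), DESeq2, limma-voom or the replicate block. With a library left out, sign changes occurred only in members that did not pass, with log2 ranges of -0.15 to 0.075 (Pcdhb14), -0.034 to 0.27 (Pcdhb16), -0.018 to 0.090 (Pcdhb18), -0.13 to 0.15 (Pcdhb20), -0.14 to 0.35 (Pcdh9) and -0.40 to 0.047 (Pcdh18).

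Over the 6 fits with a library left out, the number of genes that rose was 2315 to 3510 in all, 4 to 7 among classical cadherins, 2 to 3 among delta protocadherins, 4 to 11 in the Pcdhb row and 2 to 6 among the others. The number that fell was 2342 to 3336 in all, 2 to 4, 1 to 2, 0 to 2 and 1 to 2 in the same order. Fewer samples enter these fits. At a threshold of 0.01, 1992 genes rose and 1895 fell in all, 4 and 2 among classical cadherins, 1 and 1 among delta protocadherins, 4 and 0 in the Pcdhb row (edgeR) and 2 and 1 among the others. With the replicate block, 4358 genes rose and 4171 fell in all, against 3679 and 3571 without it. Of the members of these groups, 9, 3, 12 and 6 rose and 4, 2, 1 and 2 fell. Beyond the 7 further rises given with their genes the block changed no call of a member. Among partner and marker genes it changed the calls of Dvl1, Dab1, Ppp1ca, Ptk2b and Taok2, given above, and of Tubb3 and Nanog, which rose (adjusted p = 0.000362 and 0.0245, edgeR, and up to 0.172 and 0.298 over the alternatives). DESeq2 and the fit with no filter on low counts each added 4 rises, all in the Pcdhb row. Depth limits the members under 1 CPM, of which 7 were not tested.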
